A study of Rattus norvegicus with 12 samples.

Results

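The cytosolic ribosomal protein genes are the subject here, measured in rat lung after brain death and after an agonist of the sphingosine 1-phosphate receptor S1P1. They were taken as the probe sets to which the platform annotation gives a single symbol that starts with Rpl or Rps followed by a digit or p, or the symbol Rpsa, without the Rps6k kinases and pseudogenes. The rule uses names and no measured value. It found 48 genes with 55 probe sets, of 14217 genes and 31042 probe sets on the array, and 33 of the 48 belong by name to the large subunit and 15 to the small one. A further 36 probe sets list a ribosomal protein symbol together with other symbols, mostly those of copies, and were not named, and 2 pseudogene probe sets were left out.

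Lung RNA came from wild-type male Sprague Dawley rats of 250 to 350 g, on 12 Affymetrix arrays, 3 in each of 4 groups. In BD, brain death was produced by inflating a balloon catheter placed in the extradural space. SEW received SEW-2871, the S1P1 agonist, at 0.1 mg/kg. In BD/SEW that dose followed brain death by 15 min, and the remaining group was sham. The labels neither number the animals nor give their age, and they do not say whether the SEW animals were also operated on. The p-values therefore measure the spread between these samples, which may be technical, and if they were not, the operation cannot be told apart from the agonist in SEW against sham, or from brain death in BD/SEW against SEW.

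The ribosome is built from ribosomal RNA and one copy of nearly every ribosomal protein in each subunit, and it reads messenger RNA and joins amino acids. Dividing and growing cells make the proteins of both subunits in parallel, and the messages of most of them begin with a run of pyrimidines at the 5′ end, the TOP motif, through which mTORC1 signalling and the protein LARP1 regulate their translation. That control acts on translation and is not measured by an array of RNA levels. Because all cells carry ribosomes, many of these genes have been used as reference genes in tissue RNA.

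The pyrimidine run is shown first because it is what most members share beyond the rule. RefSeq promoter sequences of build GRCr8 matched 41 of the 48 members by gene, and the 40 bases from 25 before the annotated start to 15 from the start on were searched on the gene's own strand for at least 8 consecutive bases that are each C or T. Such a run was in 25 of the 41 windows (61.0%), against 4385 of the 27457 windows of all genes in the same table (16.0%). On the opposite strand it was in 4 of the 41 (9.8%) and in 16.8% of all windows. A start at C followed by 4 pyrimidines, the usual form of a TOP start, was annotated for 11 of the 41 members (26.8%) and for 2.6% of all genes. The windows below are of Rpl14, the member called in the test that follows, of Rpl24, of the small subunit genes Rps23 and Rps24, of the stalk protein gene Rplp0, and of the paralog Rpl3l. Capitals mark the longest run where it has 8 bases or more, and a window without capitals has none.
Rpl14, chr8:129163595-129163634, plus strand: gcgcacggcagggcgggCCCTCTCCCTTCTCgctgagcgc
Rpl24, chr11:58128391-58128430, minus strand: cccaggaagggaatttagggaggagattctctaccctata
Rps23, chr2:23814492-23814531, plus strand: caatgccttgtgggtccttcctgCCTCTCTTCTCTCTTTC
Rps24, chr16:96492-96531, plus strand: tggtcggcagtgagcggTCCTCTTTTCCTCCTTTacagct
Rplp0, chr12:46718376-46718415, minus strand: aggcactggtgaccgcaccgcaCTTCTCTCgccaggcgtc
Rpl3l, chr10:14258421-14258460, plus strand: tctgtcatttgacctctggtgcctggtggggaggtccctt
In Rpl14 the run has 14 bases and begins 8 bases before the annotated start. In Rps23 it has 17 bases within the window and reaches the window's end, so the full run may be longer. A window without a run says only that these letters are not within it, and the annotated start may differ from the start used in lung.

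On the array, 38 of the 48 members lay at the top of the scale and 10 lay lower. The 38 had means over the 12 arrays between 12.39 and 14.34 log2 units, at or above the 97.8th percentile of all genes, and 3.57% of all genes had a mean above 12. That value was chosen after the levels were seen, since no member lay between 10.55 and 12.39. The highest means were those of Rps29 (14.34), Rpl37a (14.08) and Rps23 (14.06), which encode 2 small subunit proteins and 1 of the large subunit. A probe set value depends on its probes as well as on the amount of RNA, so the order of genes is an order of signals and not of messages.

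Most of the 10 dimmer members are paralogs or carry only a dim single-symbol probe set. Rpl3l, the muscle paralog of Rpl3, averaged 5.17, Rpl39l1 and Rpl26l1 averaged 4.89 and 6.05, and Rps27l, a paralog of Rps27 that p53 induces in human cells, averaged 7.14. Rpl30 (4.68), Rpl28 (6.16) and Rps13 (7.01) encode ordinary ribosomal proteins, but the brighter probe sets that list them also list other symbols. The arrays had their lower quartiles at 5.56 to 5.66, so Rpl30, Rpl39l1 and Rpl3l lay below it. Signal over background is not given for the values used here, and differences of these 3 genes are uncertain in size. The remaining dim members were Rps4y2 (8.41), Rpl39 (8.54) and Rpl7l1 (10.55).

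**Figure D1:**
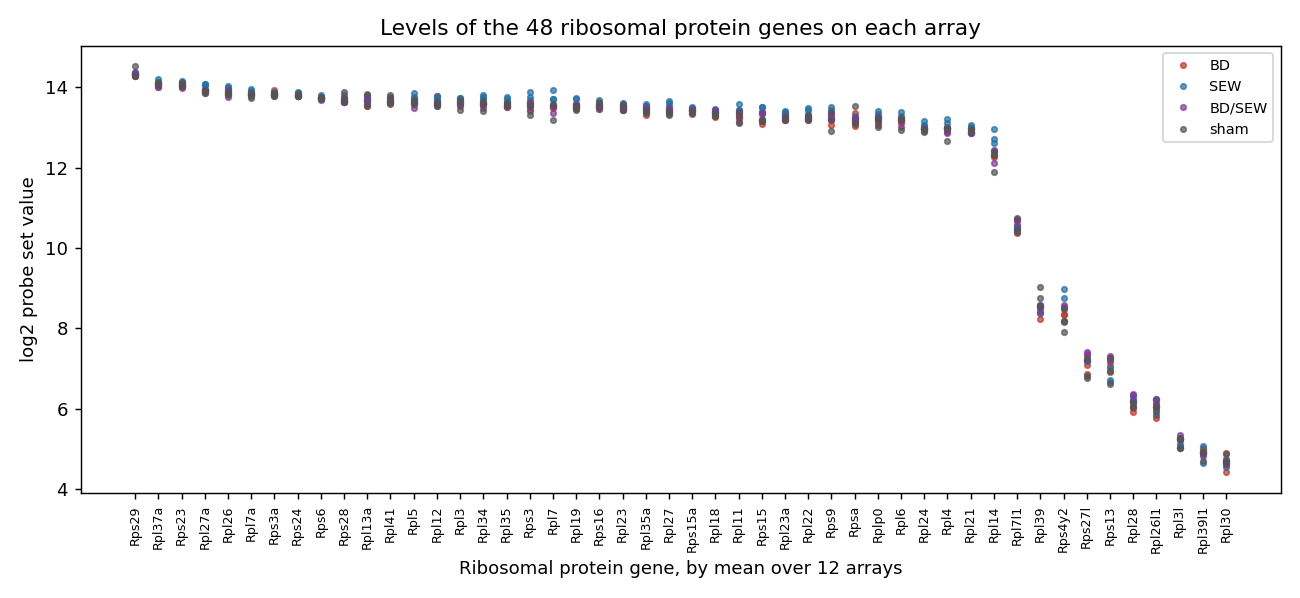
Log2 probe set value of each of the 48 ribosomal protein genes on each array (points, coloured by group), ordered by the mean over 12 arrays. The 38 genes at the left have means between 12.39 and 14.34, and the 10 at the right fall to 4.68 for Rpl30.

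The 38 brighter genes varied little among the arrays of one group. Their within-group SD had a median of 0.062 log2 units, against 0.16 over all genes, and 43 of the 48 members lay below that all-gene median. Rps24 had 13.79, 13.80 and 13.80 in BD, 13.85, 13.86 and 13.88 in SEW, 13.77, 13.78 and 13.80 in BD/SEW, and 13.78, 13.79 and 13.84 in sham. Rps24 encodes a small subunit protein. In this bright probe set all arrays thus lay within 0.11 log2 units, with the 3 SEW arrays highest. A second, dimmer probe set of Rps24 spread more widely, from 7.39 in BD replicate 3 to 8.53 in SEW replicate 3. The widest within-group SD among the members was 0.259, of Rps4y2, which the annotation names as a copy of Rps4.

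Array medians lay between 7.34 and 7.41, and no 2 arrays differed by more than 0.22 log2 units at any rank. The values reached 14.87, and the highest value of an array was 14.81, 14.81 and 14.87 in SEW and 14.66 to 14.78 in the other 9 arrays, so the top end of the scale itself was slightly higher in SEW. At the 99th percentile the SEW arrays were at 12.74 each, within the range of the others (12.60 to 12.77). Of the 38 brighter genes all but Rpl14 had means above that range, so this rank does not cover them. The difference of up to 0.22 is larger than their median difference in SEW against sham (0.14). The part of the scale in that difference was not tested. Lung markers were present on every array, with a mean of 8 genes between 13.02 and 13.60. The mean of 13 measured cardiac muscle markers was 6.08, 11.51 and 7.19 in BD, 5.69, 6.43 and 7.44 in SEW, 5.89, 6.34 and 8.27 in BD/SEW, and 10.54, 10.15 and 9.66 in sham. The mean of 10 adipose markers ran alike, at 6.71 to 9.77 in BD, 7.01 to 7.46 in SEW, 6.88 to 7.70 in BD/SEW and 9.18 to 10.31 in sham. The mean of 9 leukocyte markers was 9.56 to 10.17 in SEW and 10.22 to 10.83 in the other groups. In bulk tissue, fewer cells of a type and less RNA per cell cannot be told apart. The array weights were smallest for SEW replicate 2 (0.32) and sham replicate 3 (0.25), and the results that rest on them are given with and without them.

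No ribosomal protein gene passed the test after brain death alone, and the differences were small on the log2 scale. In BD against sham, 0 of the 48 members rose and 0 fell by limma, against 0.591% of all genes called, and 1 member had an unadjusted p under 0.05 (2.1%, against 11% of all genes). Of the members 27 were higher and 19 lower, with a median log2 fold change of 0.007, and that of all genes was 0.003. For the 38 brighter members the 95% limits of the single differences reached from -0.34 to 0.39, which is from 0.79-fold to 1.31-fold. These limits hold for each gene by itself and not for all 38 jointly. Values of BD and sham were without overlap in 2 members (15.7% of all genes), 1 of them higher (7.95% of all genes) and 1 lower (7.74% of all genes).

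Those 2 genes were Rpl24 and Rpl39. Rpl39, whose protein lines the exit tunnel of the large subunit, had 8.52, 8.39 and 8.22 in BD and 8.54, 8.76 and 9.03 in sham, with every BD array below every sham array. The log2 difference was -0.40 ± 0.13 (SE, n = 3 per group) and did not pass (adjusted p = 0.266 by limma). Rpl24, a large subunit protein at the contact between the subunits, had 12.99 in each of the 3 BD arrays and 12.95, 12.92 and 12.88 in sham, a difference of 0.07 ± 0.06 (adjusted p = 0.734 by limma). Between them by p stood Rpl39l1, with 5.01, 4.97 and 4.92 in BD and 4.90, 4.70 and 4.92 in sham, which overlapped.

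SEW-2871 without brain death went with slightly higher values of most ribosomal protein genes, and 1 of them passed the test. In SEW against sham, 1 of the 48 members rose (Rpl14) and 0 fell, against 5.84% of all genes called, 3.4% higher and 2.43% lower, so the share called was no larger than that of all genes. An unadjusted p under 0.05 was reached by 17 members (35.4%), against 25.6% of all genes. Of the 48, 40 were higher and 8 lower, and the median log2 fold change was 0.132, while that of all genes was 0.017. The SEW and sham arrays did not overlap for 22 members, all higher in SEW. Over all genes 16.4% did so in this direction, and 10.6% in the other.

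By array, the mean of the 38 brighter genes was 13.61, 13.65 and 13.57 in SEW, 13.45, 13.46 and 13.51 in BD, 13.51, 13.50 and 13.44 in BD/SEW, and 13.48, 13.49 and 13.44 in sham. The 3 SEW arrays lay above the 9 others. Among these 38 genes 35 were higher in SEW than in sham and 3 lower, with a median of 0.14, or 1.1-fold. All 26 of the large subunit were higher, with a median of 0.153 and 18 without overlap. Of the 12 of the small subunit 9 were higher and 3 lower, with a median of 0.048 and 3 without overlap. The difference between the subunits was not tested. The 38 brighter genes varied together, with a mean pairwise Pearson r of 0.46 over the 12 arrays (0.01 for all genes). For deviations from the group means it was 0.19 (0.01 for all genes). Counts of genes by direction are therefore not counts of independent results. Of the 10 dimmer members 5 were higher and 5 lower.

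**Figure D2:**
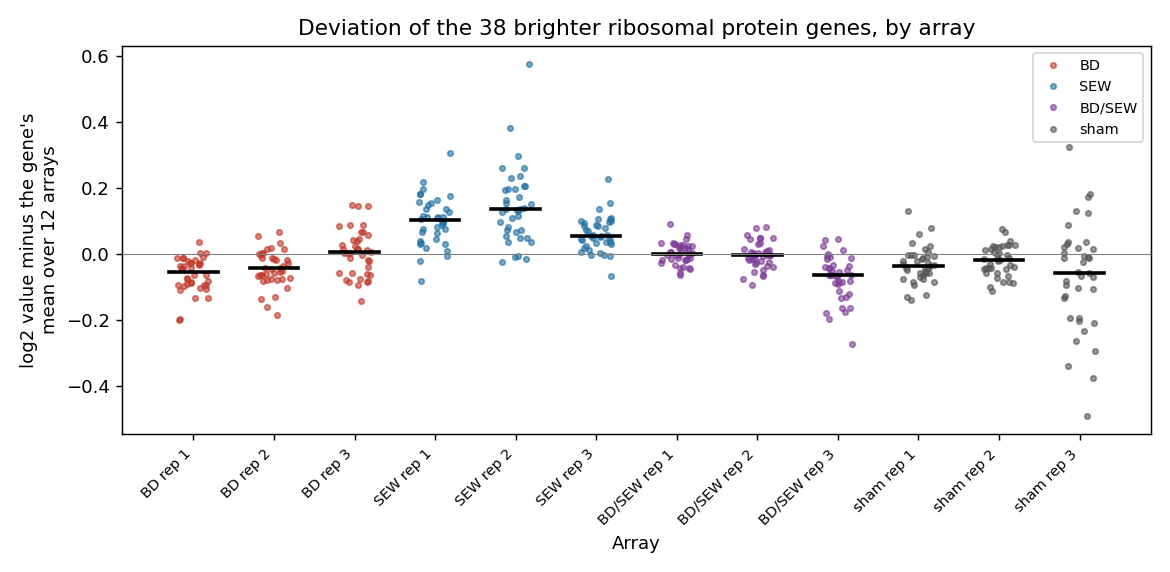
Log2 value of each of the 38 brighter ribosomal protein genes minus its own mean over the 12 arrays (points), by array, with the median of the 38 as a bar. The medians of the 3 SEW arrays lie above those of all other arrays, and the points of sham replicate 3 spread most widely.

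The one call was Rpl14, a protein of the large subunit whose promoter window holds the 14-base run shown above. Its values were 12.70, 12.97 and 12.62 in SEW and 12.39, 12.32 and 11.90 in sham. All SEW arrays lay above all sham arrays, and also above the BD arrays (12.30, 12.31 and 12.25). Rpl14 rose by 0.56 ± 0.14 on the log2 scale (SE, n = 3 per group, adjusted p = 0.0405 by limma). The call rested on single arrays. It was made in 1 of the 6 fits that left out a compared array, and the difference was 0.41 without sham replicate 3 (adjusted p = 0.097), 0.46 without SEW replicate 2 (adjusted p = 0.1) and 0.30 without both of these and BD replicate 2 (adjusted p = 0.13, limma). Over 22 alternatives the adjusted p of Rpl14 ran from 0.015 to 0.36, and 7 of them called it. A second, dim probe set of Rpl14, with a mean of 5.19, differed by -0.09 ± 0.10.

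Behind Rpl14 followed genes of both subunits that did not pass. Chosen after their values were seen, these were Rpl27 (0.23 ± 0.07, adjusted p = 0.0583), Rps15 (0.29 ± 0.09, adjusted p = 0.0725), Rps3 (0.29 ± 0.09, adjusted p = 0.0779) and Rpl7 (0.35 ± 0.11, adjusted p = 0.0817, all by limma, n = 3 per group). Rps3 forms part of the entry to the messenger RNA channel, and Rpl27 and Rpl7 are proteins of the large subunit. Rps3 had 13.75, 13.87 and 13.68 in SEW and 13.54, 13.57 and 13.31 in sham, without overlap. Rpl7 had 13.71, 13.93 and 13.70 in SEW and 13.58, 13.55 and 13.17 in sham, also without overlap. In both genes the lowest array was sham replicate 3 and the highest SEW replicate 2. Rpl5 and Rpl11, which bind Mdm2 together with 5S RNA in stressed cells, differed by 0.15 and 0.22 without passing.

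The 2 arrays of low weight took a large part of the extremes. Of the 38 brighter genes 15 had their lowest value in sham replicate 3, against 16.3% of all genes, and 23 had their highest in SEW replicate 2, against 16.7% of all genes. Without sham replicate 3 the median of the 48 members in SEW against sham was 0.116 (all genes 0.035) and 28 members lay higher without overlap (24.1% of all genes). Without SEW replicate 2 the median was 0.107 (all genes 0.035), with 22 members without overlap (23.8% of all genes). Without these 2 and BD replicate 2 it was 0.09 (all genes 0.05), with 29 members (35.4% of all genes). Fewer arrays overlap less often, so the counts are to be read against their own all-gene shares. With the cardiac marker mean as a covariate the median was 0.099 (all genes 0.004), and Rpl14 differed by 0.52 ± 0.20 (adjusted p = 0.36 by limma).

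The 3 members with the brightest signals, which stand nearest the top of the scale, differed by less than the median of the members. Rps29 had 14.37, 14.33 and 14.35 in SEW and 14.28, 14.28 and 14.52 in sham, a difference of -0.01 ± 0.07. Rpl37a had 14.19, 14.13 and 14.12 in SEW and 14.10, 14.10 and 14.07 in sham, a difference of 0.06 ± 0.05, and Rps23 differed by 0.04 ± 0.06 (SE, n = 3 per group). None of these 3 passed, and of them only Rpl37a did not overlap. The next by level, named after their values were seen, were Rpl27a (0.16 ± 0.06, adjusted p = 0.103) and Rpl26 (0.14 ± 0.06, adjusted p = 0.18, both by limma), which did not overlap and lay above that median. Lower in SEW than in sham were also all 13 cardiac markers, all 10 adipose markers and 8 of 9 leukocyte markers. The medians of these 3 lists were -3.94, -2.86 and -0.48. Without overlap, 13, 8 and 2 of their genes were lower (10.6% of all genes), and 1, 4 and 1 fell (2.43% of all genes). Higher in SEW were all 8 lung markers, with a median of 0.328. Of these, 4 did not overlap (16.4% of all genes were higher without overlap). One call was made (3.4% of all genes were called as higher). It was Cldn5, a tight junction gene of endothelium, which rose by 0.58 ± 0.13. The part of these tissues in the small differences of the ribosomal protein genes was not tested beyond the covariate fit.

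**Figure D3:**
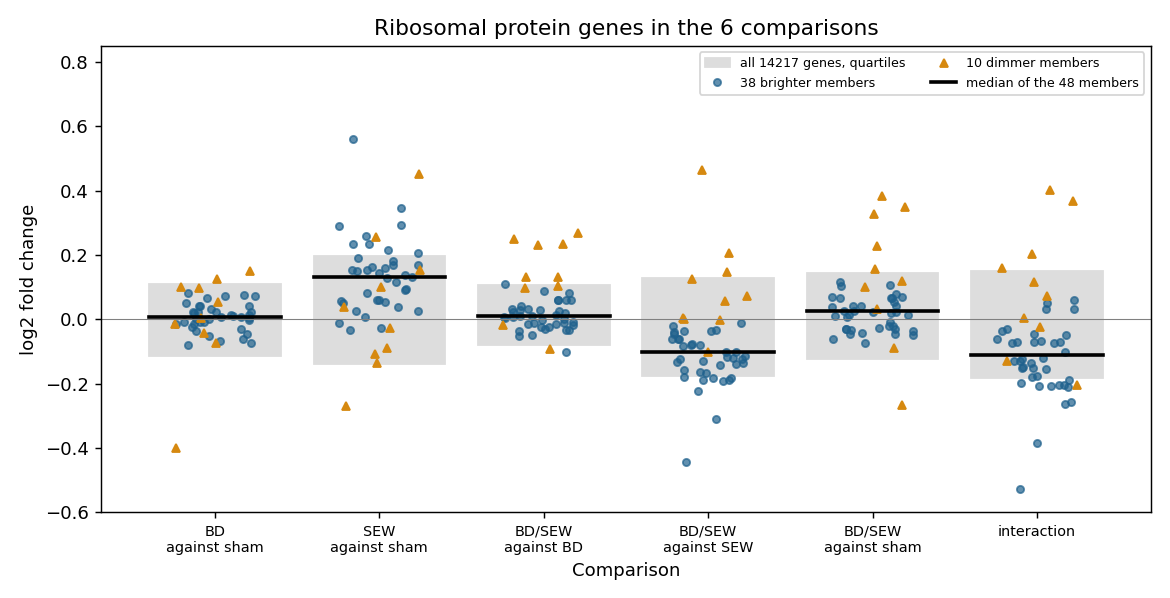
Log2 fold change of each of the 48 ribosomal protein genes in 6 comparisons (circles, 38 brighter genes; triangles, 10 dimmer genes; black bars, medians of the 48), with the quartile range of all 14217 genes in grey. The medians are 0.132 in SEW against sham and -0.103 in BD/SEW against SEW, and 0.007 to 0.025 in the other 3 group comparisons.

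After brain death, no member passed the test of the agonist. In BD/SEW against BD, 0 of the 48 members rose and 0 fell by limma, against 0.0141% of all genes called, and 1 had an unadjusted p under 0.05 (5.4% of all genes did). The median was 0.012 (all genes 0.007), with 29 members higher and 18 lower. The 95% limits for the 38 brighter genes reached from -0.28 to 0.35. The arrays did not overlap for 5 members that were higher (7.9% of all genes) and 3 that were lower (4.55% of all genes). The smallest p was that of Rpl28, a large subunit gene represented here by a dim probe set. It had 6.37, 6.20 and 6.34 in BD/SEW and 6.02, 5.92 and 6.16 in BD, a difference of 0.27 ± 0.09 (SE, n = 3 per group, adjusted p = 0.813 by limma). Next were Rps27l, with a difference of 0.23 ± 0.15, and Rps13, with 0.23 ± 0.16.

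Among animals given the agonist, brain death went with lower values of the brighter genes. In BD/SEW against SEW, 0 of the 48 members rose and 0 fell by limma, against 9.79% of all genes called, 4.75% higher and 5.04% lower. An unadjusted p under 0.05 was reached by 11 members (22.9%), against 23.8% of all genes. The median was -0.103 (all genes -0.007), with 40 members lower and 7 higher. All 38 brighter genes were lower in BD/SEW, with a median of -0.122, that is 0.92-fold, and the limits of the single differences reached from -0.75 to 0.24. As given above, these genes varied together. The arrays did not overlap for 23 members that were lower, all of them brighter genes, and for 3 that were higher. Over all genes 18.6% and 13.2% did so. This comparison shares the 3 SEW arrays with SEW against sham, so the opposite direction of the 2 is not independent. Without SEW replicate 2 the median was -0.078 (all genes -0.028), and 23 members were lower without overlap (26.1% of all genes). The SEW arrays were also below BD/SEW in the means of all 9 leukocyte markers, 3 of which rose in BD/SEW, and their part in the lower values of the ribosomal protein genes was not tested.

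Rpl14 and Rpl7 again stood first among the lower genes. Rpl14 had 12.40, 12.44 and 12.12 in BD/SEW, below the 12.70, 12.97 and 12.62 in SEW, a difference of -0.44 ± 0.14 (SE, n = 3 per group, adjusted p = 0.0683 by limma). Rpl7 had 13.53, 13.53 and 13.35 in BD/SEW and 13.71, 13.93 and 13.70 in SEW, a difference of -0.31 ± 0.11 (adjusted p = 0.104 by limma). Rps13, a small subunit gene with a dim probe set here, ran the other way. It had 7.26, 7.32 and 7.22 in BD/SEW, above 7.02, 6.72 and 6.67 in SEW, a difference of 0.46 ± 0.16 (adjusted p = 0.0911 by limma). Without sham replicate 3, which is in neither group but enters the shared spread, limma called all 3, Rpl14 and Rpl7 as lower and Rps13 as higher.

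The probe sets of one gene did not always run alike. Rps24 has a second probe set with a mean of 7.94 beside the bright one at 13.81. The dimmer one had 7.72, 7.96 and 7.79 in BD/SEW and 8.16, 8.44 and 8.53 in SEW, without overlap. Tested among all 31042 probe sets in this comparison, it fell by 0.55 ± 0.14 on the log2 scale (SE, n = 3 per group, adjusted p = 0.0376 by limma). The bright probe set differed by -0.08 ± 0.05. Without the agonist the dimmer one was also lower after brain death, at 7.67, 7.48 and 7.39 in BD and 8.01, 8.23 and 7.84 in sham. These values did not overlap either, but it was not called in BD against sham. For Rpl14 and Rpl7, the dim probe sets differed by 0.05 ± 0.10 and 0.11 ± 0.13 in BD/SEW against SEW, against -0.44 and -0.31 for the bright ones. Rpsa, which has 3 bright probe sets and whose protein was also described as a laminin receptor, differed by -0.12, 0.02 and -0.02 in them. Rpl7l1, named after its values were seen, was higher without overlap in the probe set that stood for it (0.15 ± 0.12). Another of its probe sets, of similar level, differed by -0.07 ± 0.16. The labels of the array do not say which transcript each probe set reads.

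**Figure D4:**
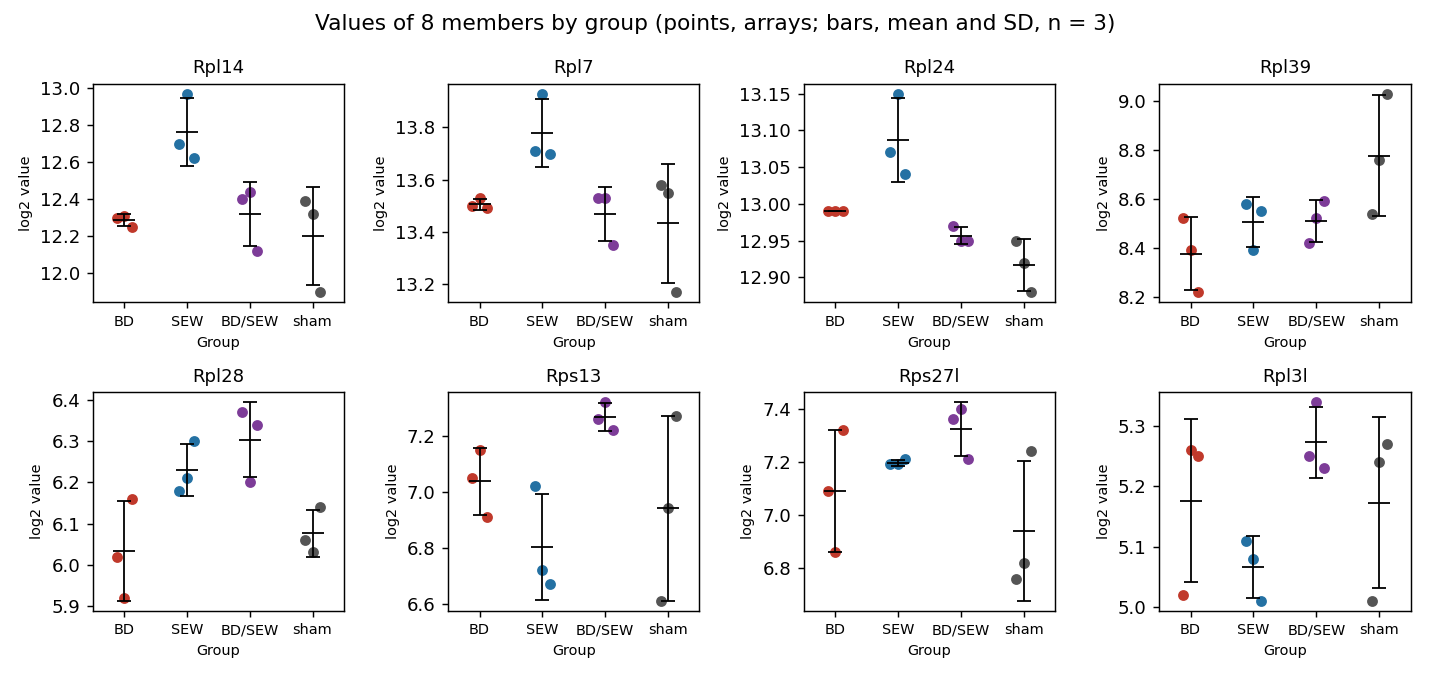
Log2 values of 8 ribosomal protein genes by group (points, arrays; bars, mean and SD, n = 3; each panel has its own scale, which does not begin at 0). Rpl14, Rpl7 and Rpl24 are highest in the 3 SEW arrays, Rpl39 has its highest mean in sham, and Rps13 has its 3 BD/SEW arrays above the SEW arrays.

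Nor did any member pass between treated brain-dead animals and sham. In BD/SEW against sham, 0 of the 48 members rose and 0 fell by limma, against 2.87% of all genes called, 1.7% higher and 1.17% lower, and 2 had an unadjusted p under 0.05 (17.5% of all genes did). The median was 0.025 (all genes 0.01), with 31 members higher and 17 lower, and the arrays did not overlap for 3 that were higher (13.7% of all genes) and 1 that was lower (12.2% of all genes). The limits of the 38 brighter genes reached from -0.31 to 0.42. The smallest p-values belonged to dim members. Rps27l had 7.36, 7.40 and 7.21 in BD/SEW and 6.76, 6.82 and 7.24 in sham, which overlapped, and differed by 0.38 ± 0.15 (SE, n = 3 per group, adjusted p = 0.194 by limma). Rpl28 differed by 0.23 ± 0.09 (adjusted p = 0.206) and Rps13 by 0.33 ± 0.16 (adjusted p = 0.313, limma). With array weights, which count sham replicate 3 for little, limma called these 3 genes as higher. Without sham replicate 3, SEW replicate 2 and BD replicate 2 it called Rps27l alone.

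The interaction asks whether brain death acts differently with the agonist than without it. Of the 48 members 0 passed by limma in either direction, against 0.95% of all genes called, 0.851% higher and 0.0985% lower, and 4 had an unadjusted p under 0.05 (8.3%, against 12.5% of all genes). The interaction was below 0 for 37 members and above it for 11, with a median of -0.112 (all genes -0.02). With array weights the median was -0.055 (all genes -0.041), without sham replicate 3, SEW replicate 2 and BD replicate 2 it was -0.079 (all genes -0.06). Rpl14 had an interaction of -0.53 ± 0.20 (SE, n = 3 per group, adjusted p = 0.297), Rpl7 one of -0.38 ± 0.16 (adjusted p = 0.346) and Rpl24 one of -0.20 ± 0.08 (adjusted p = 0.356, all by limma). All 12 arrays enter this value, the SEW arrays included, so it is not independent of the comparisons above.

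Rpl3l is known from mouse and human heart and skeletal muscle, where it stands in for Rpl3 in the ribosome. It had 5.02, 5.26 and 5.25 in BD, 5.11, 5.08 and 5.01 in SEW, 5.25, 5.34 and 5.23 in BD/SEW, and 5.01, 5.24 and 5.27 in sham. These values lay below the lower quartile of every array and within 0.33 log2 units of each other, while the cardiac marker mean ran from 5.69 to 11.51 over the same arrays. Rpl3 itself lay between 13.42 and 13.74. Rpl3l passed in none of the 6 comparisons, with the largest difference in BD/SEW against SEW (0.21 ± 0.09, SE, n = 3 per group, adjusted p = 0.177 by limma).

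The brighter genes with and without the pyrimidine run had similar medians, a difference that was not tested. Among the 32 with a promoter window, the 22 with a run had a median log2 fold change of 0.132 in SEW against sham and the 10 without one a median of 0.14, and in BD/SEW against SEW the medians were -0.108 and -0.122. Rpl24, which has no run, and Rps24, which has one of 17 bases, were each highest in the 3 SEW arrays, Rps24 in its bright probe set. The 36 probe sets that list several symbols, and so were named for no gene, had a median level of 13.47. In SEW against sham 33 of them were higher and 3 lower, with a median of 0.15, and 2 rose and 0 fell in the fit of all probe sets. Of the 36, 32 were lower and 4 higher in BD/SEW against SEW, with a median of -0.102 and 0 called. Some of these probe sets may read the same messages as the members, so they are no separate evidence.

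Other parts of the translation machinery were counted beside the members. The 73 measured mitochondrial ribosomal proteins, which build a separate ribosome, had 7 members that rose and 0 that fell in SEW against sham, with 61 higher and a median of 0.227. Mrps18c rose by 0.64 ± 0.13 (adjusted p = 0.022), Mrps24 by 0.49 ± 0.11 (adjusted p = 0.031) and Mrpl53 by 0.38 ± 0.09 (adjusted p = 0.034, all by limma, n = 3 per group). Between BD/SEW and SEW 0 of them rose and 8 fell, with a median of -0.16, and Mrpl49 fell by 0.47 ± 0.10, Mrpl53 fell by 0.43 ± 0.09 and Mrpl15 fell by 0.52 ± 0.11 on the log2 scale. In the 3 other group comparisons 0 of the 73 were called by limma, and 0, 1 and 4 had an unadjusted p under 0.05 in BD against sham, BD/SEW against BD and BD/SEW against sham. Of all genes, 3.4% were called higher in SEW against sham and 5.04% lower in BD/SEW against SEW. The other background shares are those given above for each comparison.

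Of the 32 measured initiation factors, 4 rose and 0 fell in SEW against sham, with a median of 0.177. Of all genes 3.4% were called higher and 2.43% lower in this comparison. They include Eif3f (0.45 ± 0.10), Eif3l (0.46 ± 0.12) and Eif3i (0.33 ± 0.08), subunits of the factor that brings the small subunit to messenger RNA. The comparison of BD/SEW against SEW had 1 that rose and 2 that fell (4.75% and 5.04% of all genes). Eif6, which keeps the subunits apart, rose by 0.44 ± 0.11, and Eif2b5 and Eif2b4, subunits of the exchange factor for eIF2, fell by 0.48 ± 0.12 and fell by 0.37 ± 0.10. Of 9 elongation and termination genes 8 were higher in SEW than in sham, with a median of 0.12 and none of the 8 called. Of these 8, 4 did not overlap (16.4% of all genes were higher without overlap). The other gene, Etf1, the release factor that reads stop codons, fell by 0.56 ± 0.13. Between BD/SEW and SEW 7 of the 9 were lower, with a median of -0.12 and 0 that fell, and Etf1 rose by 0.58 ± 0.13.

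The 87 measured ribosome biogenesis factors had medians nearer 0 than the members in SEW against sham and in BD/SEW against SEW, and these differences from the members were not tested. In SEW against sham their median was -0.04, with 38 higher and 49 lower. There 0 rose and 1 fell (3.4% and 2.43% of all genes), Nol10 (-0.57 ± 0.14, SE, n = 3 per group). Against SEW, 3 rose and 4 fell in BD/SEW, with 40 higher, 47 lower and a median of -0.03. Of all genes 4.75% were called higher and 5.04% lower, so neither share of the list was larger. Kri1 rose by 1.08 ± 0.20, and the RNA polymerase I subunit gene Polr1b fell by 0.67 ± 0.13 and Nol9 fell by 0.46 ± 0.10. In BD against sham 61 of the 87 were lower and 26 higher, with a median of -0.093 and 0 called by limma (0.591% of all genes). Of the 87, 6 had an unadjusted p under 0.05, against 11% of all genes. Rack1, a small subunit protein that the rule on symbols leaves out, differed by 0.17 in SEW against sham and by -0.14 in BD/SEW against SEW and was called in no comparison.

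**Figure D5:**
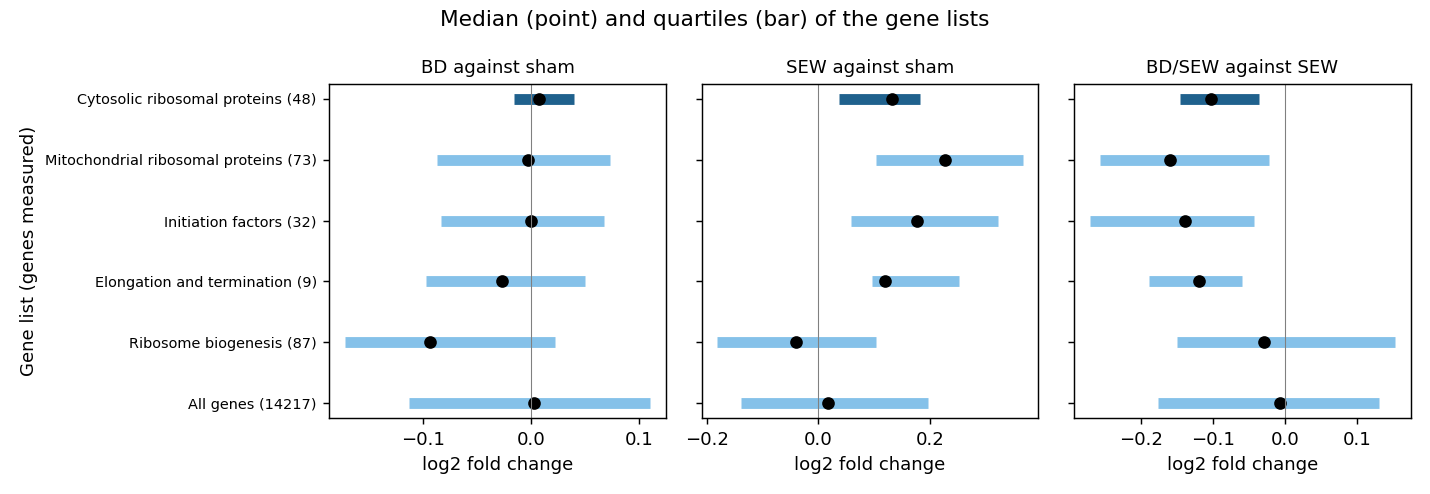
Median (point) and quartile range (bar) of the log2 fold change of the 48 cytosolic ribosomal protein genes, 4 other lists of the translation machinery and all genes, in 3 comparisons (each panel has its own scale). The medians of the cytosolic and mitochondrial ribosomal proteins are 0.132 and 0.227 in SEW against sham and -0.103 and -0.16 in BD/SEW against SEW, while both are near 0 in BD against sham.

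Among 20 measured regulators of ribosomal protein synthesis, a few large changes stood beside ribosomal protein genes that were not called. In BD against sham 1 rose and 1 fell (0.211% and 0.38% of all genes). The other 18 were not called, and the median of the 20 was -0.053. Mycn, which encodes N-Myc, a MYC family transcription factor, averaged 9.77 ± 0.60 in BD and 6.83 ± 0.31 in sham (SD, n = 3 each), and rose by 2.94 ± 0.32 (adjusted p = 0.0037 by limma). Ddit4, an inhibitor of mTORC1 signalling, averaged 9.50 ± 0.25 in BD and 11.39 ± 0.47 in sham, and fell by 1.89 ± 0.24 on the log2 scale (adjusted p = 0.0043 by limma). Mycn also rose in BD/SEW against SEW, by 3.79 ± 0.32, and Ddit4 fell by 1.61 ± 0.24 and Sesn1, another mTORC1 inhibitor, fell by 1.09 ± 0.22. In that comparison 17 of the 20 were not called, and 4.75% of all genes were called higher and 5.04% lower. In SEW against sham 0 of the 20 were called by limma, with 5 at an unadjusted p under 0.05 (25.6% of all genes). The 7 measured kinases of the Rps6k family, some of which phosphorylate the protein of Rps6, had 0 called members in each of the 6 comparisons. Of the 7, between 0 and 3 had an unadjusted p under 0.05 in a comparison. The 3 were in BD/SEW against sham, where 17.5% of all genes did. Rps6 itself was between 13.69 and 13.80 on all arrays.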

How the data were processed

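The authors deposited log2 probe set values with 2 decimals for 12 Affymetrix arrays; RMA, MAS5 and affy stand in the submitters' processing notes without version or role. Labelled RNA was made from 6 ug of total RNA, per the labels' protocols. Raw arrays were not used here. By the platform annotation, 20826 probe sets have 1 symbol, 436 have several and 9780 have none; symbols were updated through RefSeq (GRCr8; 20758 matched). The probe set with the highest mean stood for its gene.

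Group means were fitted over all 12 arrays with limma 3.58.1 (R 4.3.3) and a variance trend, for 6 contrasts, two-sided, with Benjamini-Hochberg adjustment over 14217 genes. Called means adjusted p under 0.05. The number of arrays limits the precision.

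The members and lists were chosen with earlier results of these data known. Members named are those called, otherwise the 3 with the smallest p, Rpl3l and Rps27l, the 3 highest and lowest means, and the 3 genes whose probe sets differ most; of other lists, up to 3 called members by p. Alternatives changed arrays, weights, block, trend, scaling, filter, threshold, covariate and probe sets.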

Additional observations from a re-analysis of the deposited data

Results flagged for a closer look

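Rpl24 differed in opposite directions without overlap under the same contrast, by small amounts that did not pass. In animals given the agonist, brain death went with lower values, as BD/SEW (12.97, 12.95 and 12.95) lay below SEW (13.07, 13.15 and 13.04), while without the agonist BD (12.99 in each array) lay above sham (12.95, 12.92 and 12.88). The same arrays give the second opposite pair, since SEW lay above sham and BD/SEW lay below BD. None of these differences passed, with adjusted p = 0.734 in BD against sham and 0.212 in BD/SEW against SEW (limma). In SEW against sham it was 0.107 and in BD/SEW against BD 0.992 (limma). The share of all genes that meet this rule was not counted. The difference between the effects was tested as the interaction, which was -0.20 ± 0.08 on the log2 scale (SE, n = 3 per group) and did not pass (adjusted p = 0.356 by limma). Both pairs give that one value, -0.2, and the SEW arrays enter both.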

How the results depend on the processing

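In BD against sham, BD/SEW against BD and the interaction, 0 members were called in the fit with all arrays and in each of the 22 alternatives (12 that leave out an array and 10 others). In SEW against sham, where 1 was called, 0 were called with array weights, in a fit of the compared arrays only, with the cardiac covariate, over every probe set, at an adjusted p under 0.01 and without the trio of sham replicate 3, SEW replicate 2 and BD replicate 2. It was 2 with the genes below the lower quartile of means left out (Rpl14 and Rpl27). Leaving out 1 array gave 0 to 1. Of the 4 fits with 1, the one without SEW replicate 3 called Rps4y2 and the others Rpl14.

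In BD/SEW against SEW, where 0 were called, array weights gave 1 (Rps13, higher) and every probe set 1 (Rps24, lower). Leaving out 1 array gave 0 to 3, and 3 came without sham replicate 3. For BD/SEW against sham, array weights gave 3 and leaving out that trio gave 1, against 0; leaving out 1 array gave 0 to 0. With the replicate number as a block the count was 2 in SEW against sham (Rpl14 and Rpl7) and 1 in BD/SEW against SEW (Rpl14), and 0 in the other comparisons. Of 18 same-numbered pairs, 8 correlated above 0.1 (r from -0.19 to 0.38). Whether the replicate number stands for a shared batch was not tested. The median of the members ran from 0.09 to 0.153 in SEW against sham, from -0.115 to -0.07 in BD/SEW against SEW and from -0.124 to -0.055 in the interaction. Why the calls move was not tested. Signal over background is not known for the dim members.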
